A study of Mus musculus with 8 samples.

Results

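RNA of 9 proteins known to bind or loop the immunoglobulin heavy chain (IgH) 3' regulatory region was followed: the octamer factors Pou2f1 (Oct-1) and Pou2f2 (Oct-2) with their coactivator Pou2af1 (OCA-B), the zinc finger proteins Yy1 and Ctcf, the cohesin subunits Rad21, Smc1a and Smc3, and the small Maf protein Mafk. The genes were taken by symbol, 9 of 41250 entries of the gene count table, and all 9 passed the filter on low counts that left 13791 entries for testing. The libraries were made from splenic B cells of mice homozygous for a deletion of the whole region (3'RR deletion), of its hs3b and hs4 enhancers (hs3b-hs4 deletion) or of 3'PAL, a deletion the labels give only by that name, and of wild-type mice. All mice were of the mixed background 129/C58BL/6. Cells were either cultured for 48 hours with 5 µg/mL lipopolysaccharide (LPS, from the outer membrane of bacteria, which drives B cells to divide and secrete antibody; stimulated), or used fresh after CD43-positive cells had been removed (resting). Each genotype and state gave 1 library from the pooled B cells of 4 animals, so the 4 genotypes served as the replicates of a state, p-values measure the spread between these 8 libraries, and a mutant could not be tested within 1 state. The labels do not say whether the stimulated and resting pools of a genotype shared animals. No cells were cultured without LPS, so LPS, time in culture and loss of other cells cannot be told apart. Below, a change with LPS means stimulated against resting cells.

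The 3' regulatory region is a cluster of enhancers downstream of the IgH constant genes that drives heavy chain transcription and class switching in activated B cells. Octamer factors bind the octamer motif in IgH enhancers and promoters, and OCA-B docks on them to raise transcription in B cells. CTCF binds insulator sites, also downstream of the enhancer cluster, and halts the ring-shaped cohesin complex as it extrudes loops, which brings distant enhancers and promoters together. YY1 has sites in the enhancers and can itself bridge distant DNA, and MafK pairs with Bach proteins on Maf recognition elements of the cluster, where the pair is known as a repressor.

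Total gene counts ran from 25596608 to 28785192 in the stimulated libraries and from 17883683 to 27942044 in the resting ones, with wild-type resting the shallowest. Values are CPM, gene counts relative to the library total after TMM scaling (edgeR's trimmed mean of M values), unless another unit is named. The 5 B cell markers (Cd79a, Cd79b, Ms4a1, Cd22, Pax5) summed to 1885 to 2365 CPM in stimulated and 2345 to 2525 CPM in resting cells, and none was at 0 in any library. Markers of several other cell types had higher sums in the resting libraries than after culture. The 9 erythroid markers summed to 10.5 to 236 CPM in stimulated and 3256 to 21685 CPM in resting cells, and the 10 monocyte and macrophage markers to 7.85 to 14.7 CPM in stimulated and 314 to 1417 CPM in resting cells. The 5 megakaryocyte and platelet markers summed to 1.13 to 1.42 CPM in stimulated and 12.1 to 58.1 CPM in resting cells, the 6 dendritic cell markers to 46.2 to 52.8 and 60.5 to 184 CPM, and the 8 T cell markers to 11.0 to 21.4 and 33.8 to 65.5 CPM. Of the T cell list, Cd3e, Cd3d, Cd3g and Trac were at or below 0.598 CPM in every library, so its sum comes from the other genes. Wild-type resting stood apart in that AY036118, a ribosomal RNA model, took 1.94% of its counts, against 0.00755 to 0.0842% in the other 7 libraries. In these mixed RNA samples, fewer cells of a type and less RNA per cell cannot be told apart.

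Promoter sequences were matched by symbol for 8 of the 9 genes (RefSeq, GRCm38.p6, 250 bases before to 50 after a start site). Shown first are start sites of the Pou2f1 transcripts whose estimated shares differed between the states, both on the minus strand. These are the upstream start at chr1:166002585-166002884 and the internal start at chr1:165934899-165935198. Capitals mark matches, on either strand, to the YY1 core CCATNTT, the G-rich core AGGGGGC of the CTCF motif and the Maf half-site TGCTGA, which 16.1%, 10.6% and 19.5% of 32851 mouse promoters of this length hold, and to the octamer ATGCAAAT (1.74%).
Pou2f1 upstream start: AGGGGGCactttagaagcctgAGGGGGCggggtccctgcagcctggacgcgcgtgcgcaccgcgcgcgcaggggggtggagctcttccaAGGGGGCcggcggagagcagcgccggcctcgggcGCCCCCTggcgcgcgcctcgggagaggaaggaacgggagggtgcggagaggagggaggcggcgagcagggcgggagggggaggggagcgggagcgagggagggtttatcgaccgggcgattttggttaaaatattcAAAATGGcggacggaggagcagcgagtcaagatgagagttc
Pou2f1 internal start: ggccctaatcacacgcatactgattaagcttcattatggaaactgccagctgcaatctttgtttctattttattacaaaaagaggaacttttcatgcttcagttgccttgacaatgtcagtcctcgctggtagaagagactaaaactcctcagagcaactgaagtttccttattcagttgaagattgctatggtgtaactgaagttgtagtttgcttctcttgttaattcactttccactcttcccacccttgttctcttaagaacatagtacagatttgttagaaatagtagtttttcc
Next are Ctcf (chr8:105636288-105636587, plus strand) and the cohesin genes Smc3 (chr19:53600146-53600445, plus strand) and Smc1a (chrX:152016178-152016477, plus strand), all called higher in stimulated cells. Last is Mafk (chr5:139791286-139791585, plus strand), which was called lower.
Ctcf: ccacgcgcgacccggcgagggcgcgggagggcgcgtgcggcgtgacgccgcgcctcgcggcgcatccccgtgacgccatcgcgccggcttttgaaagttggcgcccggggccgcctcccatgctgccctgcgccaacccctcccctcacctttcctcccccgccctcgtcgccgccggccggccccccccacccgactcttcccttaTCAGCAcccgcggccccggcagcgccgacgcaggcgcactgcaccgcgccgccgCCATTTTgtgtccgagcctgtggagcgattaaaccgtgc
Smc3: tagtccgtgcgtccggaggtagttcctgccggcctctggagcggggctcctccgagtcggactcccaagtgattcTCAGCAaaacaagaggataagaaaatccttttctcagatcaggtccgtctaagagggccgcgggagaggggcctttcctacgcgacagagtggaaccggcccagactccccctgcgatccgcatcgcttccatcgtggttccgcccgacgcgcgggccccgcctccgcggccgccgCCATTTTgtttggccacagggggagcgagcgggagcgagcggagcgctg
Smc1a: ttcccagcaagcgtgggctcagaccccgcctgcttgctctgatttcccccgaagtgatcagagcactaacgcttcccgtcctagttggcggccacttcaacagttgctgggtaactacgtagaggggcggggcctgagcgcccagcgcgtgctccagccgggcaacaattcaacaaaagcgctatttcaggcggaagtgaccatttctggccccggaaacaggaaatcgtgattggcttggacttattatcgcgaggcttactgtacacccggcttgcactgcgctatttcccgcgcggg
Mafk: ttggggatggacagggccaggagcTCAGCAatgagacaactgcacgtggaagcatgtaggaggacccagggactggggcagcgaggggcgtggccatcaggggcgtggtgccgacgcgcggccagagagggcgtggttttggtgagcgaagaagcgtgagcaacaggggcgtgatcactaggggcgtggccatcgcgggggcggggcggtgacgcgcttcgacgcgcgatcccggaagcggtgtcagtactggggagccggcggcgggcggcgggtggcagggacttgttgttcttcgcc
The YY1 core stood just inside the transcribed part of the Smc3, Pou2f1 upstream and Ctcf windows, at bases 2 to 8, 10 to 16 and 12 to 18 counted from 1 at the start site. Another Pou2f1 start held it as well, and it was not found in the windows of Pou2f2, Pou2af1, Yy1, Smc1a and Mafk. The CTCF core matched 4 times at the upstream Pou2f1 start and was not found at the internal one, and the Yy1 and Pou2f2 windows held it too. The Maf half-site matched 1 time each in the Ctcf, Smc3, Mafk and Pou2af1 windows, and the octamer was not found in any of the 10 windows of these genes. The windows of the Pou2f1 starts differed in base composition, with 69.7% G and C at the upstream start and 38% at the internal start, against a median of 52.7% over all promoters. These are matches of letters and not bound sites.

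Over the 4 genotypes, stimulated cells had more RNA of 6 of the 9 genes (Pou2f2, Pou2af1, Ctcf, Rad21, Smc1a and Smc3) and less of Mafk, while the entry named Pou2f1 and Yy1 were not called (edgeR's quasi-likelihood test, p adjusted by Benjamini-Hochberg, under 0.05). Much of the transcriptome differed between the states, so these counts stand against a high background. Of the 13791 genes tested, 34.9% were called higher and 35.9% lower, 70.8% in all. The median log2 fold change was 0.78 over the 9 genes and -0.03 over all genes tested. The same 7 genes had no overlap between the stimulated and the resting libraries, which held for 63.5% of all genes.

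**Figure D1:**
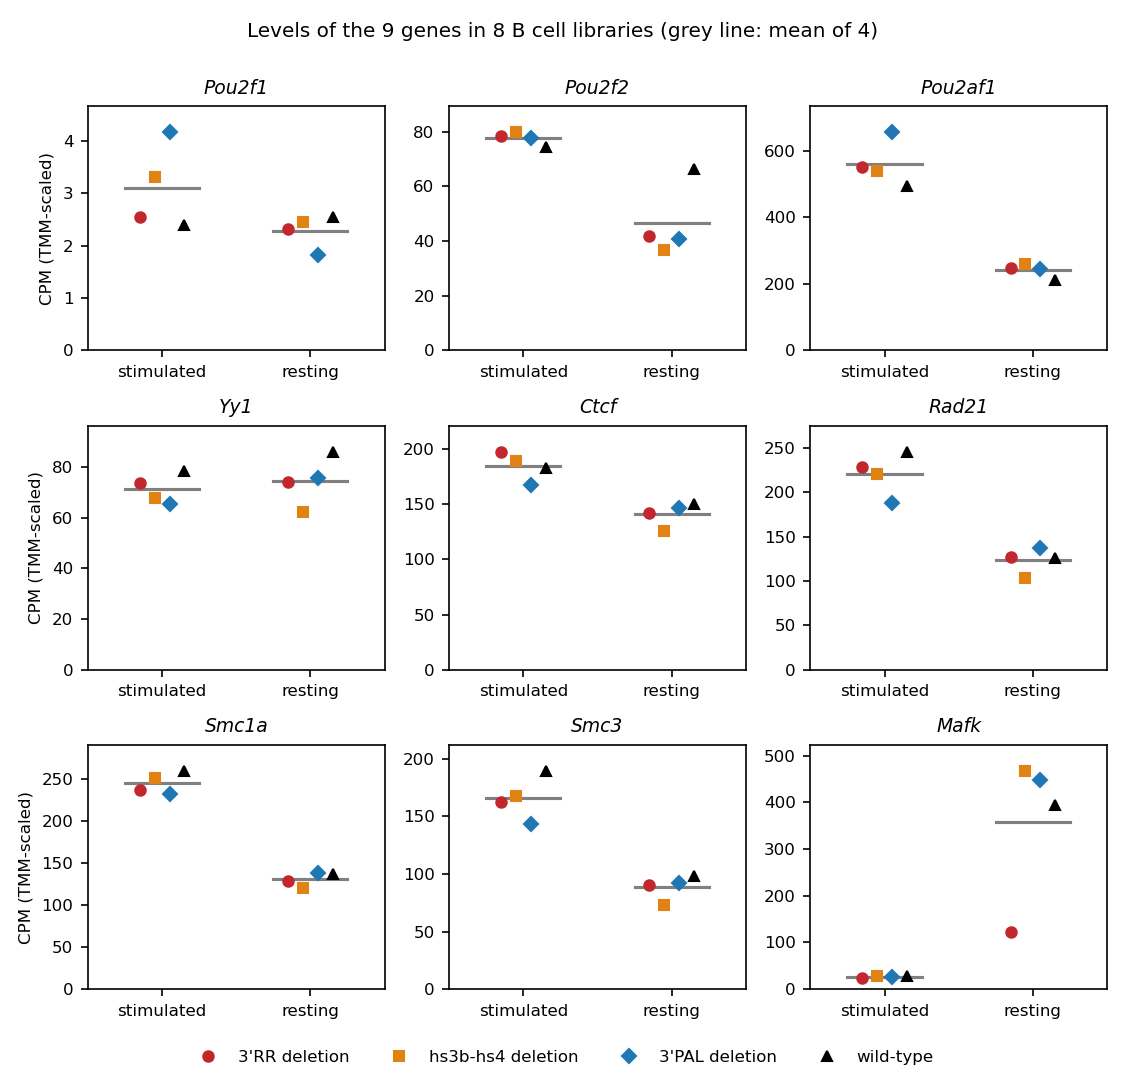
Levels of the 9 genes (TMM-scaled CPM) in the 4 stimulated (left) and 4 resting (right) libraries, 1 point per genotype, with the mean of 4 as a grey line. The states separate fully for Pou2f2, Pou2af1, Ctcf, the 3 cohesin genes and Mafk, and overlap for Pou2f1 and Yy1.

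Pou2af1, which encodes the B cell coactivator that octamer factors recruit, had the largest rise of the 9 genes. It stood at 551 CPM for 3'RR deletion, 538 for hs3b-hs4 deletion, 656 for 3'PAL deletion and 493 for wild-type stimulated cells, against 249, 259, 243 and 213 CPM in resting cells of the same genotypes. Every stimulated library was above every resting one, and the log2 fold change was 1.21 ± 0.0967 (SE; edgeR adjusted p = 3.9e-05). Within a genotype the rise lay between 2.08-fold and 2.69-fold. The gene lies at chr9:51213690-51240079 (GRCm38, plus strand).

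Pou2f2, the lymphoid octamer factor, rose less evenly. It had 78.6 CPM for 3'RR deletion, 79.8 for hs3b-hs4 deletion, 77.6 for 3'PAL deletion and 74.5 for wild-type stimulated cells, against 41.8, 36.9, 40.9 and 66.2 CPM in resting cells of the same genotypes. The stimulated libraries lay close together and wild-type resting lay well above the 3 mutant resting libraries. The log2 fold change was 0.78 ± 0.154 (SE; edgeR adjusted p = 0.0029). The ratio of stimulated to resting was 1.88 to 2.16 in the mutants against 1.13 in wild-type, with 1 pair of libraries for each. Without wild-type resting the log2 fold change was 0.98, and without wild-type stimulated it was 1.03, both called.

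Pou2f1, the octamer factor found in most cell types, is split over entries of the gene table. The entry named Pou2f1 (chr1:165869798-166002678, minus strand) had 44 to 122 counts per library, while an entry with the same name in capitals, POU2F1 (chr1:165865154-165934948), had 1052 to 1443. Its 17 exon blocks are exactly the 17 exons of transcript ENSMUST00000111427, and 47.6% of the exon bases of the Pou2f1 entry also belong to it. The kallisto estimate summed over all 18 transcripts of the gene was 1573 to 2200 counts per library. The table holds 69 symbols in both spellings. The last exon of POU2F1 also overlaps Cd247 on the opposite strand, and the sources used here do not give the strand setting of the counting.

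The Pou2f1 entry had 2.54 CPM for 3'RR deletion, 3.31 for hs3b-hs4 deletion, 4.17 for 3'PAL deletion and 2.39 for wild-type stimulated cells, against 2.32, 2.46, 1.82 and 2.56 CPM in resting cells. The states overlapped, and the log2 fold change of 0.42 ± 0.243 (SE) was not called (edgeR adjusted p = 0.16). The deeper POU2F1 entry had 40.1, 45.7, 41.7 and 43.9 CPM in stimulated and 43.3, 56.3, 53.4 and 57.2 CPM in resting cells, in the same order of genotypes. It was called lower, with a log2 fold change of -0.29 ± 0.0822 (SE; edgeR adjusted p = 0.016), although its states also overlapped through 3'RR deletion resting cells. The direction for the gene as a whole thus differed between entries. With both entries added up, an alternative chosen after seeing the data, the log2 fold change was -0.25 and was called lower (edgeR adjusted p = 0.026), and with the kallisto estimates it was -0.11 and was not called.

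What did differ between the states was the estimated share of the Pou2f1 transcripts whose first exons lie at the promoters shown above. Use of the start sites themselves was not measured. Transcripts ENSMUST00000160260 and ENSMUST00000111427 have 17 exons each and share all but the first, which starts the coding sequence: at chr1:166002562-166002678 in the upstream form and at chr1:165934804-165934948, 67730 bases downstream, in the internal form. The internal form took 26.6% of the gene's estimated counts for 3'RR deletion, 61.6% for hs3b-hs4 deletion, 59.1% for 3'PAL deletion and 32.9% for wild-type stimulated cells, against 15.2%, 13.7%, 23.0% and 17.3% in resting cells. The upstream form took 59.0%, 22%, 20.4% and 52.9% in stimulated cells, against 71.3%, 73.8%, 65.3% and 70.2% in resting cells. All 4 stimulated libraries were above all 4 resting ones for the internal form and below them for the upstream form. The mean shares of the internal form were 45.1 ± 17.9% in stimulated and 17.3 ± 4.11% in resting cells (SD, n = 4 each; exact two-sided permutation p = 0.0286, the smallest that 70 splits allow; 0.0476 adjusted over 10 transcripts). Those of the upstream form were 38.6 ± 20.2% and 70.2 ± 3.57% (SD, n = 4 each; same exact p). The stimulated libraries spread widely, with hs3b-hs4 and 3'PAL deletion high and 3'RR deletion and wild-type lower. These transcripts differ in their first exon only. Of the 10 transcript shares tested, 6 were called, 7 without wild-type stimulated and 0 when any other library was left out. The called shares were all at the smallest possible p, so the call depends on how many shares reach it. The shares of the internal and upstream forms of a gene also largely mirror each other.

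**Figure D2:**
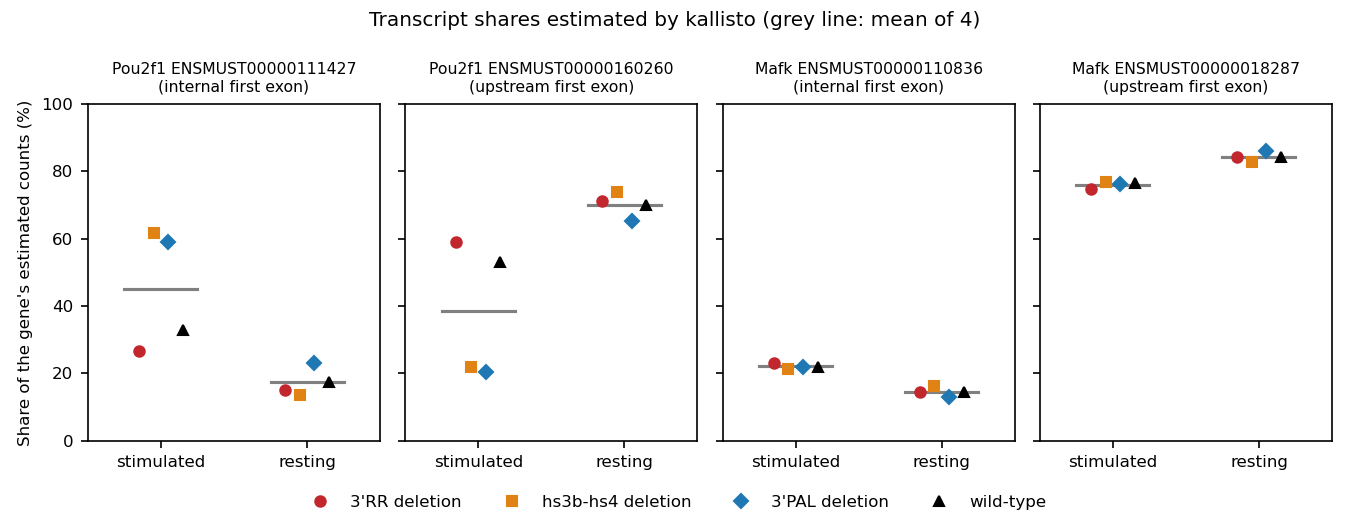
Share of a gene's kallisto estimated counts (%) held by the internal and the upstream first-exon form of Pou2f1 and of Mafk in 4 stimulated (left) and 4 resting (right) libraries, with the mean of 4 as a grey line. The internal form holds a higher share in every stimulated library than in any resting one for both genes, by 27.8 points on average for Pou2f1 and 7.57 points for Mafk.

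Pou2f2 has a like pair of main forms that differ in 1 coding exon, which is 48 bases longer in ENSMUST00000108415 than in ENSMUST00000175774. The longer form took 29.0%, 26.1% and 26.3% in the 3 mutant stimulated libraries and 8.82% in wild-type stimulated, against 9.20%, 19.8%, 16.7% and 16.2% in resting cells. The wild-type library stood below the mutants after LPS, the states overlapped, and the difference between states was not called (exact permutation p = 0.257, adjusted p = 0.321).

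The octamer genes were also set against each other within a library, with the Pou2f1 entry alone, which holds a small part of that gene's counts, so that ratios to it overstate the ratio to the gene as a whole. The log2 ratio of Pou2af1 to Pou2f1 was 7.52 ± 0.234 in stimulated and 6.73 ± 0.280 in resting cells (SD, n = 4 each; exact permutation p = 0.0286, 0.0643 adjusted over 9 ratios, so not called). The log2 ratio of Pou2f2 to Pou2f1 was 4.68 ± 0.352 in stimulated and 4.31 ± 0.348 in resting cells (exact permutation p = 0.229, n = 4 each). By TPM summed over all Pou2f1 transcripts, the linear ratio of Pou2af1 to Pou2f1 was 18 to 24.5 in stimulated and 6.35 to 9.67 in resting cells. That of Pou2f2 to Pou2f1 by TPM was 1.53 to 2.24 in stimulated and 0.533 to 1.10 in resting cells, with no overlap. The log2 CPM ratio of Pou2af1 to Pou2f2 was 2.84 ± 0.162 in stimulated and 2.41 ± 0.497 in resting cells (exact permutation p = 0.114, n = 4 each).

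Of 10 reported targets of octamer factors in B cells, 1 rose and 6 fell with LPS. Cd36, a fatty acid scavenger receptor and known Oct-2 target, rose by 1.83 on the log2 scale, with a median of 355 CPM in stimulated and 87.0 CPM in resting cells (edgeR adjusted p = 0.0011). Crisp3, a secreted protein gene, fell by 1.59 and the ubiquitin ligase gene Siah1a by 0.79. Spib, an Ets factor gene, fell by 0.70, with medians of 206 CPM in stimulated and 330 CPM in resting cells. A further 3 POU family and cofactor genes could be tested: Gtf2i, encoding the general factor TFII-I, rose by 0.41, while Pou6f1 and Pou5f2 fell by 1.72 and 1.27.

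Yy1, a zinc finger factor that activates or represses and also acts with Polycomb and the INO80 remodeller, had the smallest fitted change of the 9. It had 73.8 CPM for 3'RR deletion, 67.8 for hs3b-hs4 deletion, 65.3 for 3'PAL deletion and 78.4 for wild-type stimulated cells, against 73.9, 62.1, 75.6 and 86.0 CPM in resting cells. The states overlapped throughout. The log2 fold change was -0.05 ± 0.0858 (SE; 95% interval -0.33 to 0.22; edgeR adjusted p = 0.59). The direction differed between alternatives, and Yy1 was called in 0 of 15 of them. Yy1 lies at chr12:108792973-108816632, on the chromosome that carries the IgH locus.

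Around Yy1, 9 of 12 tested family members and partners rose and 2 fell. Ruvbl1 and Ruvbl2, the paired helicases of the INO80 complex, rose by 1.47 and 1.77 on the log2 scale (edgeR adjusted p = 4.9e-05 and 1.5e-05). Ezh2 and Suz12, core subunits of Polycomb repressive complex 2, rose by 3.05 and 1.41. Ezh2 had a median of 169 CPM in stimulated and 22.8 CPM in resting cells.

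Ctcf rose by a smaller step than the cohesin genes. It had 197 CPM for 3'RR deletion, 189 for hs3b-hs4 deletion, 167 for 3'PAL deletion and 183 for wild-type stimulated cells, against 142, 126, 147 and 150 CPM in resting cells. The groups did not overlap, with 3'PAL deletion the lowest stimulated library. The log2 fold change was 0.38 ± 0.0953 (SE; edgeR adjusted p = 0.0085). The gene lies at chr8:105636568-105682922, and its first bases overlap Gm5914 on the opposite strand. The main Ctcf transcript, ENSMUST00000005841, took 87.2 ± 0.800% of the estimated counts in stimulated and 82.6 ± 2.32% in resting cells (SD, n = 4 each; exact permutation p = 0.0286, adjusted p = 0.0476).

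The 3 cohesin genes rose by nearly the same factor. Rad21, which encodes the kleisin that closes the ring, had 228 CPM for 3'RR deletion, 221 for hs3b-hs4 deletion, 188 for 3'PAL deletion and 246 for wild-type stimulated cells, against 128, 104, 137 and 126 CPM in resting cells. The log2 fold change was 0.84 ± 0.117 (SE; edgeR adjusted p = 0.00053). The rise was weakest in 3'PAL deletion, at 1.37-fold, and strongest in hs3b-hs4 deletion, at 2.13-fold.

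Smc1a, one of the coiled-coil ATPase subunits, had 237, 252, 232 and 260 CPM in 3'RR deletion, hs3b-hs4 deletion, 3'PAL deletion and wild-type stimulated cells, against 128, 121, 138 and 138 CPM in resting cells. Its log2 fold change was 0.90 ± 0.0868 (SE; edgeR adjusted p = 8.6e-05). Its partner Smc3 had 162, 167, 143 and 189 CPM in stimulated cells of these genotypes, against 90.6, 73.4, 91.9 and 97.8 CPM in resting cells, with a log2 fold change of 0.90 ± 0.106 (SE; edgeR adjusted p = 0.00022). For both genes, every stimulated library was above every resting one, and wild-type was the highest stimulated library. The main Smc3 transcript, ENSMUST00000025930, took 99.1 ± 0.0961% in stimulated and 98.1 ± 0.223% in resting cells (SD, n = 4 each; exact permutation p = 0.0286, adjusted p = 0.0476), a small difference in size.

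**Figure D3:**
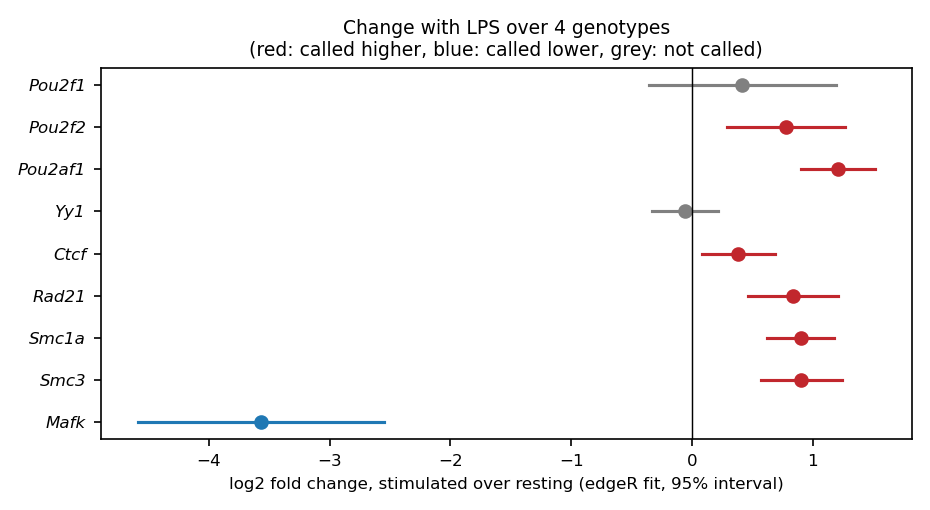
Log2 fold change of each gene, stimulated over resting, over 4 genotypes with its 95% interval from the edgeR fit. The intervals use the residual degrees of freedom alone and are wider than the tests imply. Pou2af1 shows the largest rise (1.21), the 3 cohesin genes sit together between 0.84 and 0.90, the intervals of Pou2f1 and Yy1 cross 0, and Mafk lies at -3.57.

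The cohesin genes tracked one another library by library. Over the 8 libraries, the log2 levels of Rad21 and Smc3, each centred on its own mean, differed by a root mean square of 0.0710, those of Smc1a and Smc3 by 0.0893 and those of Rad21 and Smc1a by 0.0993, the 3 closest of all pairs of the 9 genes. The next closest pair, Pou2f2 and Smc3, differed by 0.214. Such closeness was not particular to cohesin genes. Among 4365 other well-expressed genes, Plaa differed from Smc1a by 0.0508, Papola from Smc3 by 0.0526 and Rbbp4 from Rad21 by 0.0666, each less than any cohesin pair. The log2 ratio of Smc1a to Smc3 was 0.57 ± 0.101 in stimulated and 0.58 ± 0.105 in resting cells, and that of Rad21 to Smc3 was 0.41 ± 0.0505 in stimulated and 0.48 ± 0.0878 in resting cells (SD, n = 4 each; exact permutation p = 1 and 0.314). The log2 ratio of Ctcf to Rad21 was -0.26 ± 0.115 in stimulated and 0.19 ± 0.0842 in resting cells, with no overlap (SD, n = 4 each; exact permutation p = 0.0286, the smallest possible, adjusted p = 0.0643, not called). That of Yy1 to Ctcf was -1.37 ± 0.111 in stimulated and -0.93 ± 0.0909 in resting cells, also with no overlap and the same p.

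The other genes of the cohesin cycle went both ways. Of 15 tested genes for loading, release and cohesion, 10 rose, 3 fell and 2 were not called. The strongest rises were in genes of sister chromatid cohesion and its release in mitosis. Espl1 (separase, which cleaves RAD21) rose by 3.37 on the log2 scale, Cdca5 (sororin, which protects cohesin on replicated DNA) by 3.11, and the shugoshin genes Sgol1 and Sgol2 (which guard centromeric cohesion) by 3.35 and 2.81. Espl1 had a median of 86.3 CPM in stimulated and 7.61 CPM in resting cells (edgeR adjusted p = 9.7e-06). The 3 that fell, named here after their values were seen, were the loader subunits Nipbl and Mau2, by 0.53 and 0.81, and the acetyltransferase gene Esco1, by 0.77. Nipbl had 144, 146, 144 and 147 CPM in 3'RR deletion, hs3b-hs4 deletion, 3'PAL deletion and wild-type stimulated cells, against 205, 188, 205 and 247 CPM in resting cells, and Mau2 had 71.1 to 75.1 CPM in stimulated and 122 to 141 CPM in resting cells. Neither gene overlapped between states, which held for 63.5% of all genes. The loader genes were thus lower and the core genes higher in stimulated cells. Of all genes tested, 35.9% were called lower and 34.9% higher.

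**Figure D4:**
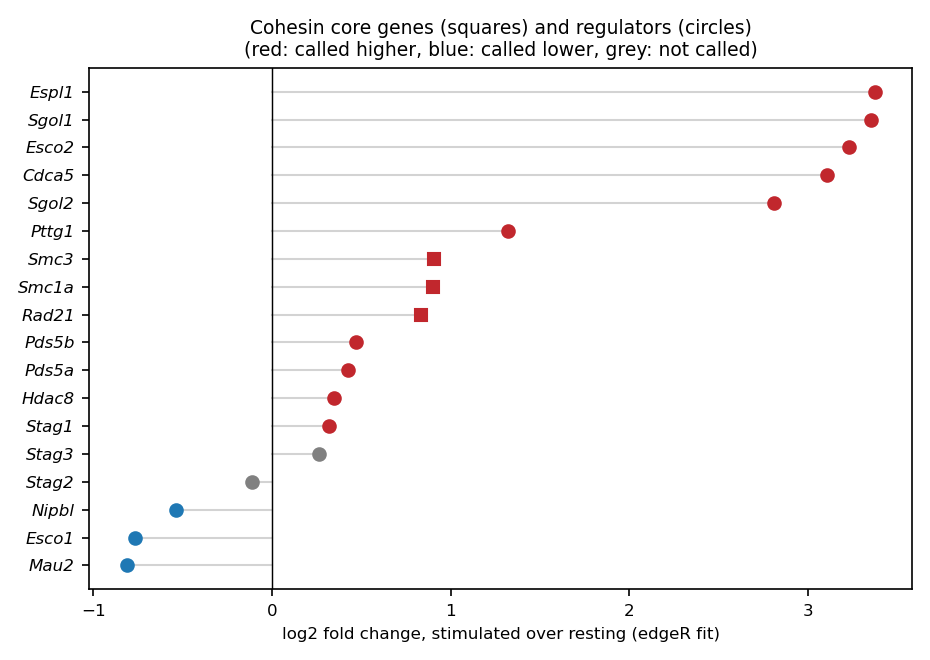
Log2 fold change, stimulated over resting, of the 3 cohesin core genes (squares) and of the 15 tested genes of cohesin loading, release and cohesion (circles). Cell division genes such as Espl1 and Sgol1 lie above 3 and the core genes between 0.84 and 0.90. Nipbl, Esco1 and Mau2 lie below 0 and were called lower, and Stag2 (-0.11) lies below 0 but was not called.

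Condensin and SMC5/6 genes, which encode related ring complexes, rose in 11 of 13 cases, with 1 that fell. Ncapg rose by 3.57 on the log2 scale, Ncaph by 3.05, Smc2 by 2.62 and Ncapd2 by 2.55, each a condensin subunit gene and each past the rise of the cohesin core genes. CTCF family and insulator partner genes went both ways, with 4 of 11 higher and 5 lower. Top2a (topoisomerase II alpha) rose by 3.46 and the RNA-binding protein gene Nono by 0.97, while the zinc finger gene Vezf1 fell by 1.29 and the RNA helicase gene Ddx5, a CTCF partner, by 1.16. Of 14 tested Mediator, bromodomain and acetyltransferase coactivator genes, 4 rose and 6 fell. The kinase gene Cdk8 of Mediator rose by 1.09 and its subunit gene Med24 by 0.62, while the acetyltransferase genes Crebbp and Kat2b fell by 1.01 and 0.78.

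Mafk was the 1 gene of the 9 that fell. It had 25 CPM for 3'RR deletion, 29.3 for hs3b-hs4 deletion, 25.2 for 3'PAL deletion and 28.6 for wild-type stimulated cells, against 121, 467, 447 and 393 CPM in resting cells. The stimulated libraries were all alike, every one of them was below every resting one, and 3'RR deletion resting cells stood far below the other resting libraries. The log2 fold change was -3.57 ± 0.321 (SE; edgeR adjusted p = 6.3e-05), and 95.3% of all genes tested changed by less in size. Resting over stimulated, the ratio was 4.86 for the 3'RR deletion pair of libraries, against 15.9 for hs3b-hs4 deletion, 17.8 for 3'PAL deletion and 13.8 for wild-type.

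Reads could be shared at the end of Mafk (chr5:139791513-139802653), which overlaps Tmem184a on the opposite strand. The kallisto estimates for Mafk, 676 to 820 in stimulated and 3487 to 12148 in resting cells, were close to the gene counts of 678 to 811 in stimulated and 3451 to 11955 in resting cells. Its transcripts also shifted. ENSMUST00000110836, which starts 6001 bases inside the gene and shares the coding sequence, took 23.1%, 21.4%, 21.9% and 21.8% in 3'RR deletion, hs3b-hs4 deletion, 3'PAL deletion and wild-type stimulated cells, against 14.4%, 16.1%, 13.1% and 14.3% in resting cells. ENSMUST00000018287, which begins at the upstream start whose promoter is shown above, took 76.1 ± 0.818% in stimulated and 84.3 ± 1.31% in resting cells (SD, n = 4 each; exact permutation p = 0.0286, adjusted p = 0.0476). The 4 genotypes of a state lay close together. These transcripts also end at different points, so the shift is not tied to the first exon alone.

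Most relatives of Mafk were also called lower. Of 8 tested Maf, Bach and cap-n-collar genes, 0 rose and 7 fell, with Nfe2l1 not called, while 35.9% of all genes tested fell. The small Maf gene Maff fell by 5.73 on the log2 scale, with medians of 1.09 CPM in stimulated and 66.4 CPM in resting cells (edgeR adjusted p = 6.5e-06). Bach1, a heme-sensing partner of small Maf proteins, fell by 1.79, and Maf, of the large Maf proteins, fell by 4.85. Bach2, the partner known for the 3' regulatory region, had 81.9, 59.6, 53.1 and 41.4 CPM in 3'RR deletion, hs3b-hs4 deletion, 3'PAL deletion and wild-type stimulated cells, against 125, 110, 99.3 and 146 CPM in resting cells. The log2 ratio of Mafk to Bach2 was -1.09 ± 0.483 in stimulated and 1.41 ± 1.02 in resting cells (SD, n = 4 each; exact permutation p = 0.0286, adjusted p = 0.0643, not called).

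Markers of other cells moved in the same direction as Mafk with LPS: 10 of 10 tested monocyte and macrophage markers and 8 of 8 erythroid markers were called lower, as were 4 of 4 megakaryocyte and platelet, 5 of 6 dendritic cell and 3 of 4 T cell markers. The called T cell markers were Cd4, Cd8a and Cd5, while Cd3e, Cd3d, Cd3g and Trac were too low in both states to be tested. Lck, with medians of 17.4 CPM in stimulated and 17.0 CPM in resting cells, was not called. Nfe2, an erythroid and megakaryocyte factor of the cap-n-collar family, had 0 counts in 3 of the 4 stimulated libraries. Among the resting libraries Mafk did not follow these sums. In 3'RR deletion, hs3b-hs4 deletion, 3'PAL deletion and wild-type resting cells the macrophage markers summed to 1417, 627, 314 and 446 CPM and the erythroid markers to 13417, 10731, 21685 and 3256 CPM, so Mafk was lowest where the macrophage sum was highest. The megakaryocyte and dendritic cell sums were also highest in that library, at 58.1 and 184 CPM. Their part in the fall of Mafk was not tested.

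Of 25 other factors reported to bind the 3' regulatory region, 5 rose and 17 fell. Batf, an AP-1 family factor needed for class switching, rose by 3.36 on the log2 scale, with medians of 97.3 CPM in stimulated and 9.30 CPM in resting cells (edgeR adjusted p = 3.8e-06). Junb, another AP-1 gene, fell by 3.69, the NF-kB subunit gene Rel by 2.31 and the inhibitor of E proteins Id2 by 2.03. Id2 was also called in the 3'RR deletion over both states, at 0.91 ± 0.146 higher on the log2 scale (SE; edgeR adjusted p = 0.03).

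Compared per length, in TPM (transcript abundance by length and library total), the order of the 9 genes in stimulated cells was Pou2af1 with a mean of 262 TPM, Ctcf with 83.5, Smc1a with 74.2, Rad21 with 70.6, Smc3 with 44.0, Yy1 with 33.6, Pou2f2 with 21.9, Pou2f1 with 12.6 and Mafk with 12.3. Neighbours in this order overlapped only for Smc1a and Rad21 and for Pou2f1 and Mafk. In resting cells Mafk was first with a mean of 146 TPM, ahead of Pou2af1 with 109, Ctcf with 71.1, Smc1a with 43.2, Rad21 with 37.6, Yy1 with 33, Smc3 with 25, Pou2f1 with 13.7 and Pou2f2 with 10.6. All neighbours overlapped there except Ctcf and Smc1a. TPM levels were not tested between states. Lars2 took 15.4% of the estimated counts in wild-type resting cells, against 0.0808 to 1.70% elsewhere. How far this shifted the other TPM values of that library was not tested. By TPM, Ctcf had 81.3 to 84.8 in stimulated and 52.2 to 86.2 in resting cells, so the ranges overlapped on that scale, with ratios of stimulated to resting of 0.982, 1.15, 1.15 and 1.56 in 3'RR deletion, hs3b-hs4 deletion, 3'PAL deletion and wild-type cells.

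No gene of the 9 was called in any mutant over both states (edgeR, adjusted p under 0.05). The fit assumes the same mutant change in stimulated and resting cells. It called 264 genes, 1.91% of those tested, in the 3'RR deletion, 17 genes, 0.123%, in the hs3b-hs4 deletion and 62 genes, 0.45%, in the 3'PAL deletion, so 0 of 9 is near the background. At an unadjusted p under 0.05, 1 of the 9 passed in the hs3b-hs4 deletion and 0 in each of the others, and DESeq2 called 0 of the 9 in each. That gene was Yy1, with a log2 fold change of -0.34 ± 0.122 (SE; 95% interval -0.72 to 0.05; edgeR adjusted p = 0.48). The interval uses the 3 residual degrees of freedom alone, while the p-value also draws on the spread of other genes. It is thus wider than the test implies and can hold 0 although the unadjusted p passed. All 3 mutants share the wild-type libraries as their reference.

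The intervals, which are wider than the tests imply, hold for a mutant change taken as the same in both states. A change in 1 state only is averaged over both and is not bounded by them. In the 3'RR deletion, the log2 fold change of Ctcf was 0.01 (95% interval -0.41 to 0.44), that of Smc1a -0.12 (-0.50 to 0.27), that of Rad21 -0.05 (-0.57 to 0.48) and that of Yy1 -0.15 (-0.54 to 0.23). Pou2af1 was at 0.19 (-0.23 to 0.62) in the 3'RR deletion, 0.21 (-0.22 to 0.64) in the hs3b-hs4 deletion and 0.31 (-0.12 to 0.74) in the 3'PAL deletion. Mafk had the widest intervals, from -2.17 to 0.48 around -0.84 in the 3'RR deletion. Without the 3'RR deletion stimulated library, the log2 fold change of Mafk was -1.80 (edgeR adjusted p = 0.026). The genotype then rests on its resting library alone, which is assumed to vary like the other genotypes, so this value restates the single resting ratio and adds no replicate to it.

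**Figure D5:**
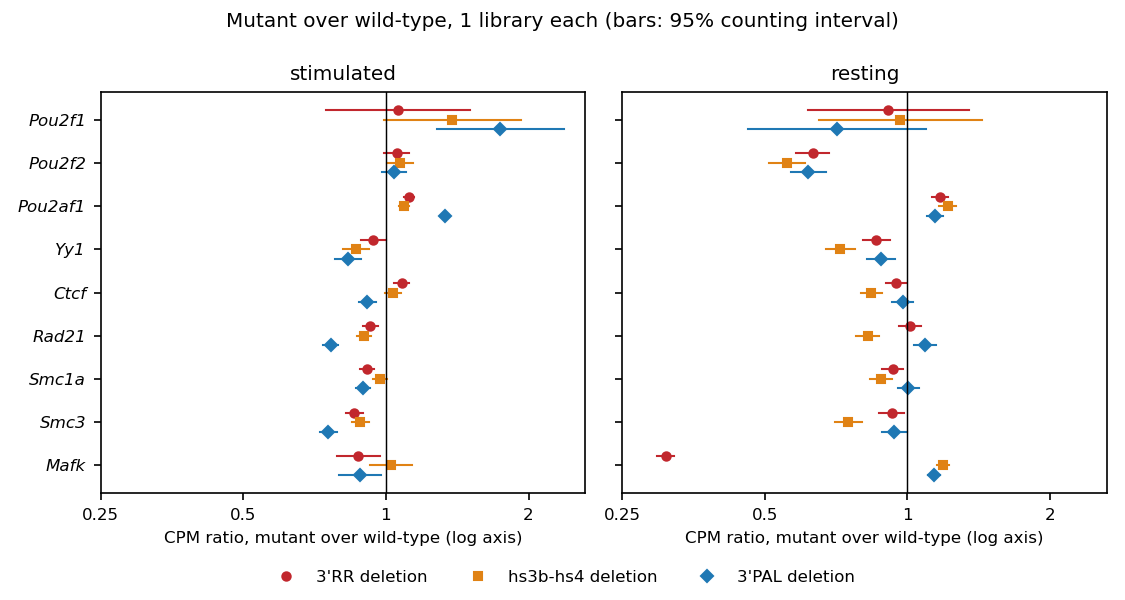
CPM ratio of each mutant over wild-type for the 9 genes in stimulated (left) and resting (right) cells, 1 library each, on a log axis with 95% counting intervals. Most ratios lie near 1. Mafk in 3'RR deletion resting cells (0.309) and Pou2f2 in the 3 mutant resting libraries (0.557 to 0.632) lie apart.

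Within a state, 54 mutant over wild-type ratios were formed, with no replicate check and with intervals that cover counting error only. A single one passed a size rule of 2-fold with at least 10 CPM in the higher library. This was Mafk in resting cells, with 121 CPM (95% counting interval 117 to 126) in the 3'RR deletion and 393 CPM (384 to 403) in wild-type, a ratio of 0.309 (0.296 to 0.322). In that pair of libraries 3.24% of all genes passed the rule, against 2.11% in each of the other resting mutants and 1.89%, 0.863% and 1.70% in 3'RR, hs3b-hs4 and 3'PAL deletion stimulated cells. In the other resting mutants the Mafk ratio was 1.19 in the hs3b-hs4 deletion and 1.14 in the 3'PAL deletion, and in stimulated cells it was 0.875, 1.03 and 0.882 in the 3'RR, hs3b-hs4 and 3'PAL deletions.

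Other Maf and Bach genes did not share a common ratio in 3'RR deletion resting cells. Maff stood at 37.3 CPM in 3'RR deletion and 62.8 CPM in wild-type, a ratio of 0.594, whereas Mafg was at 0.912 and Bach1 at 0.952 of wild-type. Maf was higher, at 1.64 times wild-type. Nfe2 was the 1 gene of this list called in a mutant over both states. It was 3.28 ± 0.477 higher in the 3'RR deletion (log2 with SE, edgeR adjusted p = 0.022). There, 6 of 8 tested erythroid and 6 of 10 macrophage markers were called with it. A high resting level of Nfe2 was not particular to this mutant. It reached 13.6 CPM here and 14.2 CPM with 3'PAL deleted, while wild-type had 1.47 CPM and the hs3b-hs4 mutant 2.34 CPM. Of the erythroid markers, 5 were also called in the 3'PAL mutant and 1 in the hs3b-hs4 mutant, with 0 macrophage markers in either. All of these contrasts share the wild-type libraries.

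At a size rule of 1.5-fold, Pou2f2 joined in all 3 resting mutants, with ratios to wild-type of 0.632 (95% counting interval 0.583 to 0.685) in the 3'RR deletion, 0.557 (0.511 to 0.607) in the hs3b-hs4 deletion and 0.618 (0.567 to 0.672) in the 3'PAL deletion. All 3 rest on the same wild-type resting library. In stimulated cells the Pou2f2 ratios were 1.06, 1.07 and 1.04 in these genotypes. The background at 1.5-fold was 7.16%, 5.22% and 4.73% of genes in the 3 resting mutants and 4.63%, 2.13% and 6.25% in the stimulated ones, in the same order.

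In CPM, smaller departures had the same sign throughout for some genes. The share of all genes tested that do so was not counted. Pou2af1 was above wild-type in 6 of 6 ratios (1.09 to 1.33), with the highest in 3'PAL deletion stimulated cells, at 656 against 493 CPM in wild-type. Yy1 was below wild-type in 6 of 6 (0.722 to 0.941) and Smc3 in 6 of 6 (0.751 to 0.939). By TPM the resting ratios were instead above 1, at 1.37 to 1.68 for Yy1 and 1.28 to 1.79 for Smc3. Those of Pou2af1 were above 1 on that scale too, at 1.83 to 2.19. Lars2 took 15.4% of the estimated counts of the wild-type resting library, and its part in the difference between the scales was not tested. Smc1a was below in 5 of 6 (0.878 to 1.00). Rad21 ranged from 0.765 in 3'PAL deletion stimulated cells to 1.09 in 3'PAL deletion resting cells, and Ctcf from 0.839 to 1.08. The 3 ratios of a state share 1 wild-type library and so are not independent. The Pou2f1 entry reached 1.74 (1.28 to 2.38) in 3'PAL deletion stimulated cells, but at 4.17 against 2.39 CPM it was below the level the rule asks for.

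Genotypes lacking hs3b and hs4 (3'RR and hs3b-hs4 deletion) were also set against those keeping them (3'PAL deletion and wild-type), 2 libraries against 2 in each state. This edgeR fit called 0 of the 13791 genes (0%) in stimulated cells, in resting cells and for the difference between states, with 354, 779 and 256 genes at an unadjusted p under 0.05. Of the 9 genes, 0 passed at an unadjusted p under 0.05 in any of these comparisons. DESeq2 called 5, 75 and 2 genes and none of the 9. In resting cells Pou2f2 was at -0.44 ± 0.214 (95% interval -1.04 to 0.15) and Mafk at -0.52 ± 0.527 (-1.98 to 0.95), both log2 with SE. In stimulated cells Pou2f2 was at 0.06 ± 0.212, Mafk at 0.02 ± 0.534 and Ctcf at 0.14 ± 0.109. The difference between states was 0.50 ± 0.301 for Pou2f2 and 0.29 ± 0.154 for Ctcf (both log2 with SE; edgeR adjusted p = 1 for each).

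For each of the 9 genes, the genes of most similar pattern were sought among 4365 well-expressed genes, as those with the smallest root mean square difference of centred log2 CPM over the 8 libraries. The closest matches were Rock1 for Yy1 (0.0512), Ngdn and Gtf2i for Ctcf (0.05 and 0.0504), Plaa for Smc1a (0.0508), Papola for Smc3 (0.0526) and Rbbp4 for Rad21 (0.0666). P4hb and Cope were closest to Pou2af1 (0.0844 and 0.0851), Eif4enif1 to Pou2f2 (0.117) and Tor3a to the Pou2f1 entry (0.129). Mafk had no close match, with Impact and Zc3h12c nearest (0.397 and 0.417). Zc3h12c, for example, had 10.1 CPM in 3'RR deletion and 11.4 to 16.3 CPM in the other stimulated libraries, against 53.2 CPM in 3'RR deletion and 102 to 137 CPM in the other resting libraries.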

How the data were processed

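Splenic B cell RNA of 4 genotypes in 2 states (8 libraries, 1 per genotype and state) was depleted of ribosomal RNA, prepared with a stranded kit and sequenced as paired-end reads, per the labels' protocols. The deposited gene-level values are raw counts for each gene symbol. The authors made them with STAR 2.4.0a and featureCounts of Subread 1.4.6-p1 on GRCm38 (mm10), per the submitters' processing notes. At the transcript level the authors deposited estimated counts and TPM values from kallisto 0.42.3, per the same notes. The sources used here do not give the annotation version, the strand setting or whether reads or fragments were counted.

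The entry without a gene name, 0.00621 to 0.0342% of a library's counts, was left out. TMM scaling (factors 0.943 to 1.05) and testing were done with edgeR 4.0.16 in R 4.3.3, after the filterByExpr filter by state. The model had terms for genotype and state, which left 3 residual degrees of freedom, at a biological coefficient of variation of 15.8%. A fit of 4 groups of 2 libraries compared genotypes lacking and keeping hs3b and hs4 (4 residual degrees of freedom, 24.6%). Benjamini-Hochberg adjustment ran over the 13791 entries tested, with a threshold of 0.05. The scripts were tested on simulated counts. Ratios of genes and transcript shares (mean share of at least 10%) were compared by exact permutation over the libraries, without the pairing by genotype. Intervals on CPM are exact 95% Poisson intervals and those on ratios exact conditional binomial intervals. Those on log2 fold changes use the standard error and the residual degrees of freedom of the fit alone. They are wider than the edgeR tests imply, since these also draw on the spread of other genes. A floor of 3 counts was 0.102 to 0.163 CPM. Alternatives were DESeq2 1.42.0, its size factors, library size alone, no filter, kallisto estimates rounded to whole numbers, no genotype term, each library left out and, chosen after seeing the data, both Pou2f1 entries added up.

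Transcript structures are from GENCODE M21 (GRCm38) and promoters from RefSeq (GRCm38.p6). The labels give no replicate numbers, so libraries were paired by genotype through the fit alone. The 9 genes and the other lists were chosen with earlier results of these data known. The CTCF and Maf motifs were shortened after longer forms had matched none of the 10 promoter windows. All 9 genes are named throughout. Of each other list at most the 4 tested genes with the lowest adjusted p for stimulation were named, others as stated, and for likeness up to 2 genes per gene. Some genes of the marker and Maf lists are not reported here and were left out of the counts and sums.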

Additional observations from a re-analysis of the deposited data

Results flagged for a closer look

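In 18 groups of 4 libraries (9 genes in 2 states), 1 value stood apart by Dixon's test at its 95% level: Pou2f2 in resting cells, with 36.9 to 41.8 CPM in the 3 mutant libraries, against 66.2 CPM in wild-type. The gap from wild-type to the nearest library was 0.832 of the range of the group, just past the critical value for 4 libraries. Chance marks about 1 in 20 such groups. By TPM, Pou2f2 had 9.65 to 12.2 in the mutant and 10.5 in the wild-type resting libraries. Lars2 took 15.4% of the estimated counts in wild-type resting cells, and how far this shifted the other TPM values there was not tested. The TPM ratio of mutant to wild-type resting cells was 0.921 to 1.17 for Pou2f2, against a median of 1.49 over the 24 ratios of the other 8 genes (0.568 to 2.19). In wild-type resting cells AY036118 took 1.94% of the counts. Its part in the Pou2f2 value was not tested.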

How the results depend on the processing

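The calls of the 7 genes that changed with LPS held in 15 of 15 alternatives, with log2 fold changes of 1.14 to 1.34 for Pou2af1, 0.69 to 1.03 for Pou2f2, 0.34 to 0.51 for Ctcf, 0.78 to 1.02 for Rad21, 0.87 to 1.03 for Smc1a, 0.83 to 1.05 for Smc3 and -3.96 to -3.31 for Mafk. The labels give no replicate numbers, and the fit paired the 2 libraries of a genotype through its genotype term, which called 9761 genes. Without that term (no replicate block by genotype), 9423 genes and 7 of the 9 were called. For the Pou2f1 entry the change with LPS was -0.11 by kallisto and -0.25 with both entries added up (called lower, edgeR adjusted p = 0.026), and for Yy1 it was 0.014 without a filter and 0.083 by kallisto.

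DESeq2 called more genes than edgeR: 511, 187 and 241 in the 3'RR, hs3b-hs4 and 3'PAL deletions, and 5, 75 and 2 when genotypes lacking hs3b and hs4 were set against those keeping them in stimulated cells, in resting cells and for the difference between states. Without a filter on low counts, edgeR called 657, 189 and 313 genes in the 3 mutants and 8 and 71 in the comparisons lacking over keeping hs3b and hs4 in stimulated and resting cells. With library size alone it called 40 in the 3'PAL deletion and 1 in the lacking over keeping comparison of stimulated cells. The cause was not tested. A 1.5-fold size rule gave 4 ratios in place of 1.

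Uncalled mutant values changed sign as follows. In the 3'RR deletion, Pou2f1 was at 0.0021 with DESeq2's size factors and 0.019 without a filter, and Ctcf at -0.023 with library size alone. In the 3'PAL deletion, Pou2f1 was at -0.023 by kallisto and -0.063 with entries added up, and Mafk at -0.018 with library size alone. For lacking over keeping in stimulated cells, Rad21 was at -0.00063 and Mafk at -0.035 with library size alone, and Mafk at -0.034 by kallisto. In resting cells Pou2f1 was at -0.10 by kallisto and -0.14 with entries added up, and the difference between states at 0.047 and 0.13.

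With each library left out in turn, the genes called ranged from 56 to 278 in the 3'RR deletion (56 without its resting library), from 0 to 22 in the hs3b-hs4 deletion (0 without its resting library) and from 0 to 96 in the 3'PAL deletion (0 without its resting and 1 without the wild-type resting library). From 0 to 1 of the 9 were called in the 3'RR deletion, where the 1 is Mafk with its stimulated library left out. Transcript shares called ranged from 0 to 7, with 7 when wild-type stimulated was left out and 0 when any other library was, and 7 by TPM. The following log2 values changed sign in these runs, none of them called. In the stimulation fit, they were -0.092 to 0.052 for Yy1. In the 3'RR deletion, they were -0.34 to 0.32 for Pou2f1, -0.69 to 0.11 for Pou2f2, -0.053 to 0.093 for Ctcf and -0.13 to 0.053 for Rad21. In the hs3b-hs4 deletion, they were -0.14 to 0.54 for Pou2f1, -0.78 to 0.033 for Pou2f2, -0.24 to 0.049 for Ctcf, -0.22 to 0.0041 for Smc1a and -0.15 to 0.41 for Mafk. In the 3'PAL deletion, they were -0.35 to 0.67 for Pou2f1, -0.72 to 0.085 for Pou2f2, -0.22 to 0.052 for Ctcf, -0.39 to 0.13 for Rad21, -0.18 to 0.029 for Smc1a and -0.42 to 0.38 for Mafk. In lacking over keeping hs3b and hs4 in stimulated cells, they were -0.50 to 0.29 for Pou2f1, -0.26 to 0.14 for Pou2af1, -0.15 to 0.13 for Yy1, -0.13 to 0.26 for Rad21, -0.089 to 0.081 for Smc1a, -0.20 to 0.21 for Smc3 and -0.088 to 0.13 for Mafk. In the same comparison in resting cells, they were -0.096 to 0.39 for Pou2f1 and -1.75 to 0.18 for Mafk. In the difference between states of that comparison, they were -0.64 to 0.15 for Pou2f1, -0.00090 to 0.42 for Smc3 and -0.18 to 1.75 for Mafk. The log2 ratio of Smc1a to Smc3 differed between states by -0.045 to 0.045, and the shares of the main transcripts by -0.74 to 1.29 points for Smc1a and -0.24 to 0.78 points for Yy1. There is a single library per genotype and state, and wild-type resting, the shallowest, enters every resting ratio.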
